A study of Mus musculus with 6 samples.

Results

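Parental imprinting leaves some genes active on only the copy inherited from the mother, or only the copy from the father. Many of these genes set the growth of the fetus, and several of them are also linked to the growth and regeneration of muscle. The 10 genes described here are *H19*, *Igf2*, *Meg3*, *Rian*, *Mirg*, *Dlk1*, *Peg3*, *Cdkn1c*, *Mest* and *Plagl1*. They were chosen by name, as growth genes of the *H19*/*Igf2* and *Dlk1*/*Meg3* loci and others of the imprinted network, with earlier results of these data known. All 10 were found by gene symbol among the 37979 genes of the deposited table.

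Gastrocnemius (GAS) muscles were taken from 3 wildtype (WT) and 3 Kvβ2-/- knockout (KO) male mice, 20 weeks of age and untreated. Both genotypes were bred by crossing mice that carried 1 null copy of *Kcnab2*, the gene of the β2 subunit of voltage-gated potassium channels, and the strain is not given in the sources used here. The null allele is present in the whole animal, so the comparison is not limited to myofibers. Each mouse gave 1 poly(A)-selected RNA-seq library, named KO1, KO7, KO8, WT1, WT7 and WT8, and expression is given as FPKM, which counts sequenced fragments relative to transcript length (in kilobases) and to the number of mapped fragments in the library. The depth, estimated from the steps between low FPKM values, was 13960000 to 18150000 fragments in the KO and 19240000 to 20140000 in the WT libraries. *Kcnab2* measured 0.233 FPKM in WT1, 0.10 in WT7 and 0.110 in WT8, and 0.0151 in KO7 with 0 listed in KO1 and KO8, so the targeted gene was low in both genotypes and lower in the KO.

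Imprinted genes lie in clusters that share a control region. On distal chromosome 7, the maternal copy gives *H19*, a long noncoding RNA abundant in fetal tissues and muscle, and the paternal copy gives *Igf2*, the gene of insulin-like growth factor 2. On chromosome 12, the paternal copy gives *Dlk1*, a transmembrane protein of the Notch ligand family, and the maternal copy gives the noncoding RNAs *Meg3*, *Rian* and *Mirg*, in this order on the same strand. *Rian* is the host of small nucleolar RNAs and *Mirg* of microRNAs.

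*H19*, *Igf2* and *Mest* each carry a microRNA gene within their bounds. The mature microRNAs are shown because they are the known small products of these loci, which the long-RNA values below do not measure. The sequences are from RefSeq on GRCm38.p6, written 5′ to 3′ with the seed (bases 2 to 8) in capitals.
miR-675-5p, in *H19*, chr7:142577112-142577133, minus strand: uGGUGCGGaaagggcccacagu
miR-675-3p, in *H19*, chr7:142577078-142577099, minus strand: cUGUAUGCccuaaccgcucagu
miR-483-5p, in *Igf2*, chr7:142654968-142654989, minus strand: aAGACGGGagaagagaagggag
miR-483-3p, in *Igf2*, chr7:142654932-142654952, minus strand: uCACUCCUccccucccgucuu
miR-335-5p, in *Mest*, chr6:30741314-30741336, plus strand: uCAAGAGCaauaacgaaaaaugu
miR-335-3p, in *Mest*, chr6:30741354-30741375, plus strand: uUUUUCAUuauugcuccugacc
No seed was shared among them. Of 48 microRNA genes listed for the loci of the 10 genes, 42 were in the table, and all 42 were listed at 0 FPKM in every library. Of all 660 genes in the table whose symbol begins with Mir, 9 were above 0 in any library, so libraries of this kind hardly held microRNA genes and say nothing of the mature microRNAs.

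The start sites of *Meg3*, *Rian* and *Mirg* are shown because these 3 noncoding RNAs are read in the same direction from 1 cluster. Whether these sequences bear on the levels of the 3 RNAs was not tested. Each sequence runs from 250 bases before to 50 after an annotated start on the plus strand of GRCm38.p6 (RefSeq), with CG dinucleotides, the sites of DNA methylation, in capitals. The *Mirg* window lies inside *Mirg* as placed by GENCODE (chr12:109729764-109749460), so it is not the start of the gene by those bounds.
*Meg3*, chr12:109540746-109541045: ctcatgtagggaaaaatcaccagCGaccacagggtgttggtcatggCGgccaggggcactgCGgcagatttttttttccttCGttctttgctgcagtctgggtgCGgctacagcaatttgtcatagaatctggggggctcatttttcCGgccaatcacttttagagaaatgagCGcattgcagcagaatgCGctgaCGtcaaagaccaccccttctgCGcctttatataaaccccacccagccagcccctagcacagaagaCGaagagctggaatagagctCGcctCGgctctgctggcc
*Rian*, chr12:109603695-109603994: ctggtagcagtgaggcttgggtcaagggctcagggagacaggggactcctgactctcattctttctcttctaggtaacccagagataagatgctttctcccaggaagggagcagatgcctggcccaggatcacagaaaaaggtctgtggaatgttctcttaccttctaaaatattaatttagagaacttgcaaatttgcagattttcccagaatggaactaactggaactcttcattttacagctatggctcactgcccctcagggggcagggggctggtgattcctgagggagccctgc
*Mirg*, chr12:109734731-109735030: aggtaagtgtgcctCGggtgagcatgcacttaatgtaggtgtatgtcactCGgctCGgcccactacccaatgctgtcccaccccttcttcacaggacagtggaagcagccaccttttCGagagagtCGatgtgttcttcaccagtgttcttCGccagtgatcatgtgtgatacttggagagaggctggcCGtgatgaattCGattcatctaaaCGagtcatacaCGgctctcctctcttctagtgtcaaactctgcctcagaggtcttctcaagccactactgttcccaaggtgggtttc
The *Meg3* sequence held 13 CG dinucleotides, the *Mirg* sequence 10 and the *Rian* sequence 0, against a median of 7 over the 32851 promoter windows of the same length. A second annotated *Meg3* start (window chr12:109545148-109545447) had 1 CG dinucleotide and neither of the motifs below. TGACGTCA, the palindromic cyclic AMP response element, occurred in this *Meg3* window and in that of *Peg3*, and in 1.79% of all windows. TGCCGC, the core of the ZFP57 motif, was searched on both strands (GCGGCA on the other). It was found in 5 of 14 windows of 8 of the genes, belonging to *Meg3*, *Igf2*, *Mest* and *Plagl1*, and in 11.6% of all windows. The *Mest* windows with it, chr6:30737800-30738099 and chr6:30737803-30738102, are nearly the same sequence. This motif holds a CG, and the windows with it held 13 to 26 CG dinucleotides, above the median of 7. No comparison with windows of like CG content was made. These letter matches describe the sequence and were not tested for use in muscle. Windows for *H19* and *Cdkn1c* were not used here.

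*H19* was by far the most abundant of the 10 genes in adult GAS muscle. Its mean over the 6 libraries was 187 FPKM, above those of 97.6% of the tested genes. *Meg3* followed at 8.87, *Cdkn1c* at 6.44, *Rian* at 4.36 and *Igf2* at 4.22 FPKM. *Peg3*, a zinc finger protein gene, and *Mest*, a gene of the hydrolase fold family, were at 1.68 and 1.55 FPKM. *Plagl1*, a zinc finger transcription factor gene, was at 0.514, *Mirg* at 0.392 and *Dlk1* at 0.315 FPKM. In this order the range over libraries of *H19* stood clear of that of *Meg3*, that of *Igf2* clear of that of *Peg3*, and that of *Mest* clear of that of *Plagl1*. The other neighbours had ranges that overlapped, although within each of the 6 libraries *Cdkn1c* was above *Rian*.

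**Figure D1:**
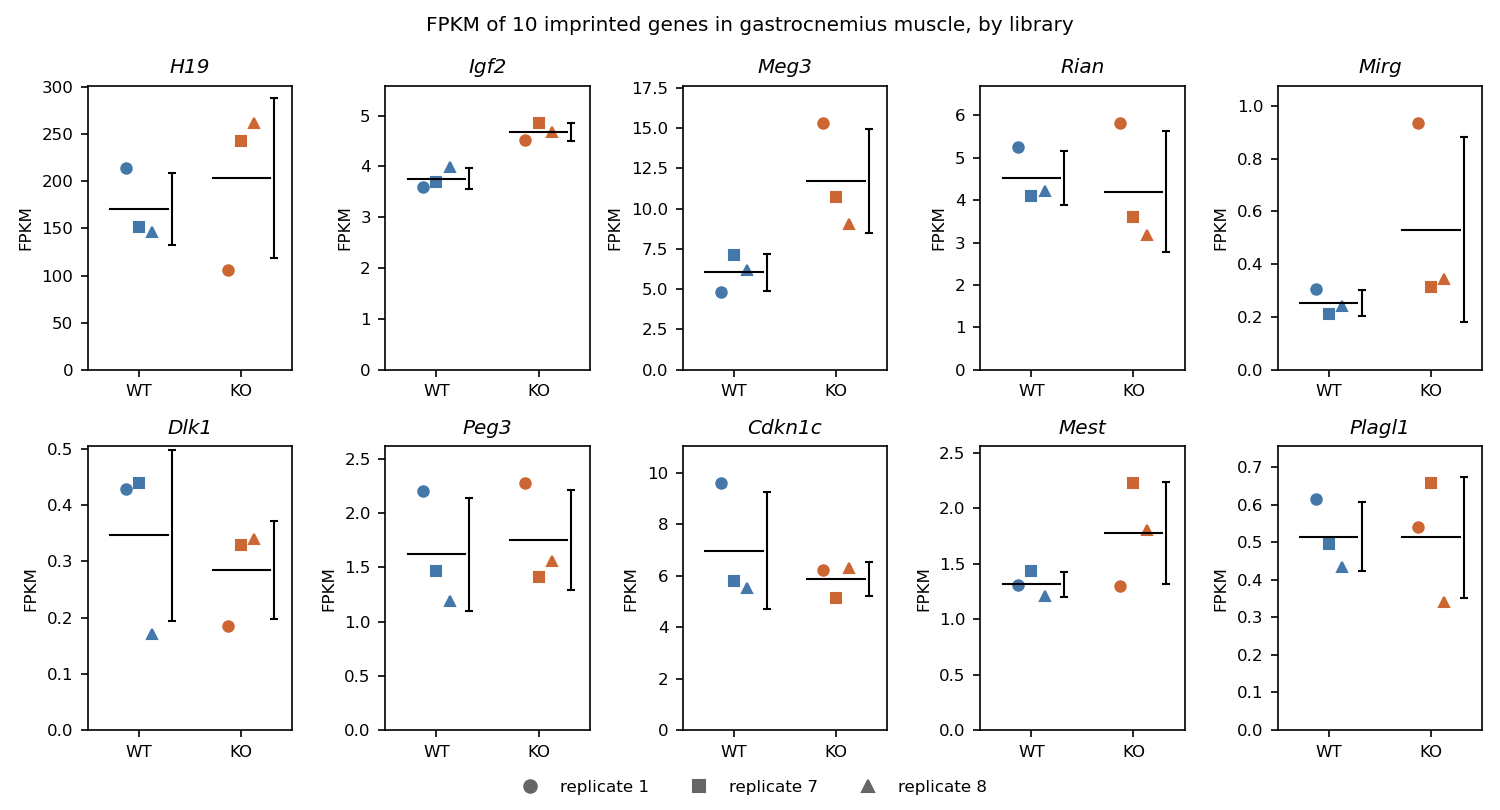
FPKM (linear axis from 0) of each of the 10 genes in the 3 WT and 3 KO libraries. Points are libraries, marked by replicate number, the horizontal line is the mean and the bar the SD. All KO points lie above all WT points for *Igf2*, *Meg3* and *Mirg*, and the genotypes overlap for the other 7 genes.

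Of the 10 genes, 8 had a mean of at least 0.5 FPKM and were tested with limma among 12334 genes, and *Mirg* and *Dlk1* were under that level. After Benjamini-Hochberg adjustment 0 of the 8 passed an adjusted p of 0.05, while 0.324% of all tested genes did (0.251% higher and 0.073% lower in the KO). At an unadjusted p under 0.05, 2 were higher in the KO (*Meg3* and *Igf2*), where 15.3% of tested genes were, and 0 were lower, where 10.9% were. All KO libraries were above all WT libraries for 2 of the 8 tested genes against 18.3% of tested genes. With *Mirg* this held for 3 of the 10, against 16.9% of the genes above 0 in every library. In none of the 10 were all KO libraries below all WT libraries, against 16.2% of tested genes and 14.2% of the genes above 0 in every library. The median log2 fold change of the 8 genes was 0.14, and that of all tested genes 0.010. An exact permutation test of 3 against 3 libraries cannot give a two-sided p under 0.1. Since the muscle was measured whole, fewer cells of a type and less RNA per cell cannot be told apart in any of these values.

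At the *H19*/*Igf2* locus, *Igf2* was higher in the KO libraries and *H19* varied widely among the KO libraries. *H19* (ENSMUSG00000000031, chr7:142575529-142578143, minus strand, GRCm38, a long intergenic noncoding RNA) was at 214, 151 and 146 FPKM in WT1, WT7 and WT8, and at 106, 243 and 262 in KO1, KO7 and KO8. KO1 was the lowest and KO8 the highest of all libraries, so the WT values lay inside the KO range. The means were 204 ± 84.9 (SD, n = 3) in the KO and 171 ± 37.9 in the WT, with a log2 fold change of 0.17 (SE 0.34, limma adjusted p = 0.780). The highest library was 2.46-fold above the lowest, which exceeds the difference between the genotype means. Without KO1 the log2 fold change was 0.59, and without KO8 it was -0.064, so the direction rested on single mice.

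*Igf2* (ENSMUSG00000048583, chr7:142650766-142666816, minus strand) lies 72.6 kb from *H19*. It was at 3.60, 3.69 and 3.99 FPKM in WT1, WT7 and WT8, and at 4.51, 4.85 and 4.67 in KO1, KO7 and KO8. Every KO library was above every WT library, with 4.51 FPKM the lowest in the KO and 3.99 the highest in the WT. The means were 4.68 ± 0.172 in the KO and 3.76 ± 0.204 in the WT (SD, n = 3). The log2 fold change was 0.31 (SE 0.11, 95% interval 0.042 to 0.58), with an unadjusted limma p of 0.0287 and an adjusted p of 0.152. The exact permutation p was 0.1, the smallest the design allows. After correction for the GC content of transcripts, described below, the log2 fold change was 0.046 and the genotypes overlapped. Only when limma weighted the libraries by their estimated quality (array weights) did *Igf2* pass the threshold, with 0.32 (adjusted p = 0.0288), in a fit that called 3147 of all genes.

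*H19* and *Igf2* are known to share enhancers, and the ratio of their FPKM within a library is therefore given beside their levels. It was 59.5, 41.0 and 36.7 in WT1, WT7 and WT8, and 23.6, 50.04 and 56.0 in KO1, KO7 and KO8. The genotypes overlapped, with the lowest ratio in KO1 and the highest in WT1. The mean log2 ratio differed by -0.14 between KO and WT (exact permutation p = 0.8).

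*Cdkn1c* (ENSMUSG00000037664, chr7:143458339-143461050, minus strand) encodes p57, an inhibitor of cyclin-dependent kinases, and is expressed from the maternal copy of the neighbouring imprinted domain, 880 kb from *H19*. It was at 9.60, 5.82 and 5.51 FPKM in WT1, WT7 and WT8, and at 6.23, 5.13 and 6.32 in KO1, KO7 and KO8. WT1 stood above the other 5 libraries, which lay close together and mixed by genotype. The means were 5.89 ± 0.661 in the KO and 6.98 ± 2.28 in the WT, and the log2 fold change was -0.20 (SE 0.22, limma adjusted p = 0.589). It became 0.050 when WT1 was left out.

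At the *Dlk1*/*Meg3* cluster, *Meg3* had the largest log2 fold change of the 8 tested genes, and its neighbours differed in pattern. *Meg3* (ENSMUSG00000021268, chr12:109541001-109571726, plus strand, a long intergenic noncoding RNA) was at 4.84, 7.11 and 6.17 FPKM in WT1, WT7 and WT8, and at 15.3, 10.7 and 9.06 in KO1, KO7 and KO8. Every KO library was above every WT library, with KO1 the highest. The means were 11.7 ± 3.24 in the KO and 6.04 ± 1.14 in the WT (SD, n = 3), a ratio of 1.94. The log2 fold change was 0.92 (SE 0.22, 95% interval 0.40 to 1.44), with an unadjusted limma p of 0.00376 and an adjusted p of 0.0785. With 1 library left out at a time it ranged from 0.71 to 1.09. With array weights *Meg3* was called, at a log2 fold change of 0.59 (limma adjusted p = 0.0421).

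*Rian* starts 32.2 kb beyond the end of *Meg3* (chr12:109603940-109661716, plus strand). Its noncoding RNA (ENSMUSG00000091793, placed by symbol because the identifier is absent from the annotation used) was at 5.25, 4.09 and 4.21 FPKM in WT1, WT7 and WT8, and at 5.82, 3.61 and 3.17 in KO1, KO7 and KO8. KO1 was the highest library and KO7 and KO8 the lowest, so the WT libraries lay between KO libraries. The means were 4.20 ± 1.42 in the KO and 4.52 ± 0.641 in the WT, and the log2 fold change was -0.14 (SE 0.23, limma adjusted p = 0.723).

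A further gene with the symbol *Rian* (ENSMUSG00000084691) is, by its coordinates, 1 small nucleolar RNA of 74 bases within the host, at chr12:109646129-109646202 on the plus strand. Its sequence in GENCODE vM21 is shown because this entry must be kept apart from the long RNA.
*Rian* small nucleolar RNA: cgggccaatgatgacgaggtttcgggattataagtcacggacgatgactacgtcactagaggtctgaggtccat
It was listed at 64.1 FPKM in KO7 and at 0 in the other 5 libraries. It was not counted as the *Rian* host RNA, and its value rests on 1 library.

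*Mirg* (ENSMUSG00000091158, placed by symbol, chr12:109729764-109749460, plus strand) starts 68.0 kb beyond the end of *Rian*. It was at 0.308, 0.211 and 0.241 FPKM in WT1, WT7 and WT8, and at 0.935, 0.315 and 0.343 in KO1, KO7 and KO8. The KO libraries were all above the WT libraries, narrowly for KO7 against WT1, and KO1 was far above the rest. The means were 0.531 ± 0.350 in the KO and 0.253 ± 0.0495 in the WT, with a log2 fold change of 0.71 that became 0.29 without KO1. These levels correspond to at most 20 to 50 fragments in a KO and 16 to 23 in a WT library, so counting error is large.

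*Dlk1* (ENSMUSG00000040856, chr12:109452823-109463336, plus strand), 77.7 kb before *Meg3*, was about as low as *Mirg*, which it exceeded in 3 of the 6 libraries. It was at 0.428, 0.439 and 0.171 FPKM in WT1, WT7 and WT8, and at 0.184, 0.329 and 0.340 in KO1, KO7 and KO8. The genotypes overlapped over almost the whole range, with WT8 the lowest library and WT7 the highest. Its log2 fold change was -0.17 (exact permutation p on log2(FPKM + 0.1) = 0.6), and no library held more than 39 fragments of it by the estimate of depth.

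The ratio of *Meg3* to *Rian* within a library also separated the genotypes. It was 0.922, 1.74 and 1.47 in WT1, WT7 and WT8, and 2.63, 2.97 and 2.86 in KO1, KO7 and KO8. The KO ratios lay close together and all above the WT ratios, although KO1 was the highest library for both genes. The mean log2 ratio was 1.47 ± 0.0838 in the KO and 0.40 ± 0.466 in the WT (SD, n = 3), a difference of 1.07 (exact permutation p = 0.1, the smallest possible). The difference ranged from 0.81 to 1.26 with 1 library left out at a time.

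The ratio of *Meg3* to *Mirg* overlapped between the genotypes. It was 15.7, 33.7 and 25.6 in WT1, WT7 and WT8, and 16.4, 34.05 and 26.4 in KO1, KO7 and KO8 (log2 difference 0.21, exact permutation p = 0.6). Since *Mirg* is low, this difference depended on the pseudocount, and was 0.062 with 0.01 FPKM and 0.57 with 1 FPKM (exact permutation p = 0.7 and 0.1). Libraries with the same number had nearly the same ratio in both genotypes. Paired by number, an exact test that flips the sign of each difference gave p = 0.25, the smallest that 3 pairs allow. Across all tested genes, libraries of the same number did not deviate together, and what the numbers stand for is not given. The ratio of *Meg3* to *Dlk1* was 11.3, 16.2 and 36.2 in WT1, WT7 and WT8, and 83.2, 32.6 and 26.6 in KO1, KO7 and KO8. WT8 lay above 2 of the KO libraries, and the log2 difference was 1.10 (exact permutation p = 0.2). For each ratio the difference was taken on log2 of FPKM + 0.1.

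**Figure D2:**
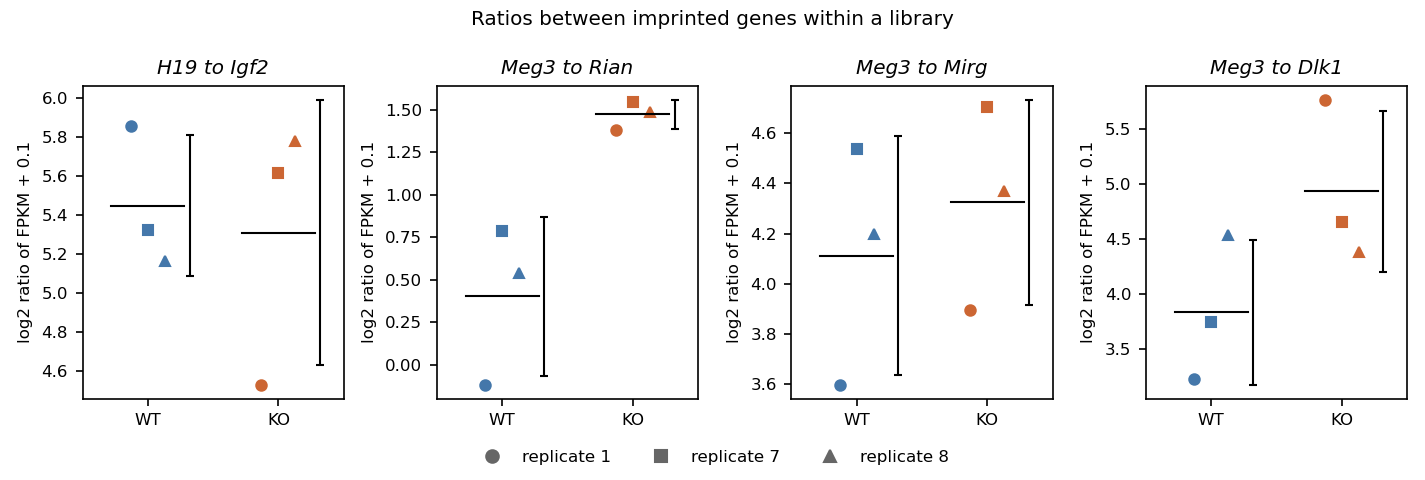
Log2 ratio of FPKM + 0.1 between pairs of imprinted genes within a library, by genotype. Points are libraries marked by replicate number, lines are means and bars the SD. For *Meg3* to *Rian* all KO points lie above all WT points, and for the other 3 ratios the genotypes overlap. The axes do not start at 0.

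*Peg3*, *Mest* and *Plagl1* are paternally expressed genes of other chromosomal regions. *Peg3* (ENSMUSG00000002265, chr7:6703892-6730431, minus strand) was at 2.20, 1.47 and 1.19 FPKM in WT1, WT7 and WT8, and at 2.27, 1.41 and 1.56 in KO1, KO7 and KO8. The replicate 1 library was the highest in either genotype and the rest were mixed. Its log2 fold change was 0.12 (SE 0.27, limma adjusted p = 0.811).

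*Mest* (ENSMUSG00000051855, chr6:30723547-30748465, plus strand), also known as *Peg1*, was at 1.30, 1.43 and 1.21 FPKM in WT1, WT7 and WT8, and at 1.30, 2.22 and 1.80 in KO1, KO7 and KO8. KO7 and KO8 were above all WT libraries and KO1 was among them. *Mest* had a log2 fold change of 0.38 (SE 0.22, 95% interval -0.15 to 0.91, limma adjusted p = 0.315). *Mest* overlaps *Copg2* on the opposite strand, which had a mean of 5.82 FPKM. The library kit keeps the strand, but whether the quantification used it is not given in the sources used here, so fragments of the overlap may be shared.

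*Plagl1* (ENSMUSG00000019817, chr10:13060504-13131694, plus strand), also known as *Zac1* and as a regulator of other imprinted genes, was at 0.617, 0.495 and 0.435 FPKM in WT1, WT7 and WT8, and at 0.542, 0.657 and 0.340 in KO1, KO7 and KO8. The KO range enclosed the WT range. The means were 0.513 ± 0.161 in the KO and 0.515 ± 0.0925 in the WT, and the log2 fold change was -0.031 (SE 0.36, limma adjusted p = 0.966). Its 95% interval of -0.87 to 0.81 is wide, so differences of that size were not detectable here.

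Grouped by the parental copy from which they are known to be expressed, which FPKM does not show, the genes had no common direction. Of the 5 maternally expressed genes (*H19*, *Meg3*, *Rian*, *Mirg* and *Cdkn1c*), 3 had positive and 2 negative log2 fold changes, with a median of 0.17. Of the 5 paternally expressed genes (*Igf2*, *Dlk1*, *Peg3*, *Mest* and *Plagl1*), 3 were also positive and 2 negative, with a median of 0.12. Across the 10 genes the highest library was KO1 for 4 of them, *Meg3*, *Rian*, *Mirg* and *Peg3*, while KO1 was the lowest for *H19*. KO7 was the highest for *Igf2*, *Mest* and *Plagl1*. The libraries were thus not ordered alike across the network.

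The log2 fold change of all genes moved with the GC content of their transcripts, and the values of the 10 genes were set beside this trend. Across 12151 tested genes of known GC content, which all come from the same 6 libraries and are not independent, Spearman's rho between GC content and log2 fold change was 0.70. *Cdkn1c*, at 59.8% GC, had a log2 fold change of -0.20 where genes within 1 percentage point of its GC content had a median of 0.63. *Igf2*, at 54.4%, had 0.31 where genes of like GC content had 0.27. *Meg3*, at 51.9%, had 0.92 where they had 0.10, and *Rian*, at 40.1%, had -0.14 where they had -0.35. *Igf2* therefore lay near the median of genes of its GC content, *Meg3* above it and *Cdkn1c* below it.

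**Figure D3:**
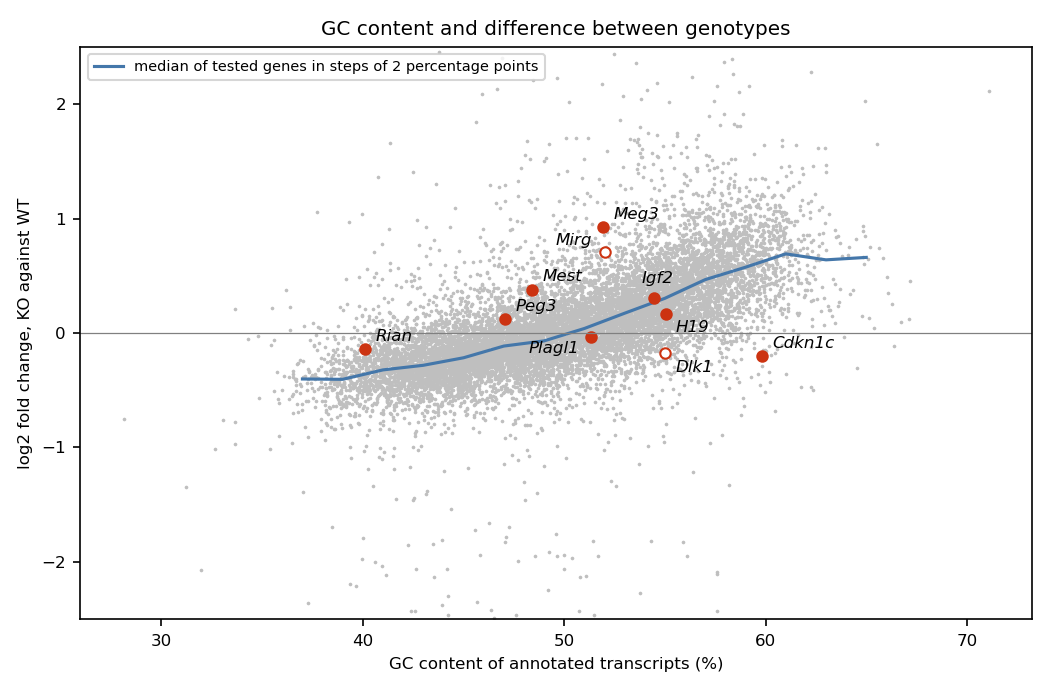
Log2 fold change (KO against WT, FPKM + 0.1) against the GC content of annotated transcripts in percent. Grey points are tested genes, the blue line is their median, and red points are the 10 imprinted genes, open where the gene was under the FPKM filter. The axis ends at 2.5 and -2.5 and genes beyond it are not drawn. *Meg3* lies above the median line and *Cdkn1c* below it.

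When each library was corrected for GC content by a loess curve, the shifts of the 10 genes ran from -0.60 to 0.36 on the log2 scale. *Meg3* kept a log2 fold change of 0.82 (95% interval 0.32 to 1.32, unadjusted p = 0.00587 and adjusted p = 0.279 in the limma fit across all genes), with all KO libraries still above all WT libraries. *Igf2* went to 0.046 (95% interval -0.19 to 0.28), and its genotypes then overlapped. *Cdkn1c* went to -0.80 (95% interval -1.52 to -0.084, unadjusted p = 0.0332 and adjusted p = 0.405 in the same limma fit), with all KO libraries below all WT libraries. *H19* and *Rian* changed sign, to -0.14 and 0.21. *Mirg* was at 0.60 with overlap, *Dlk1* at -0.48, *Peg3* at 0.25, *Mest* at 0.46 and *Plagl1* at -0.10. The log2 ratio of *Meg3* to *Rian* differed by 0.61 after the correction and still separated the genotypes, and that of *H19* to *Igf2* by -0.18. After the correction 0 of the 8 tested genes passed an adjusted p of 0.05, where 0.115% of the 12151 corrected genes did. At an unadjusted p under 0.05, 1 was higher (*Meg3*), where 5.71% of genes were, and 1 was lower (*Cdkn1c*), where 5.42% were.

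**Figure D4:**
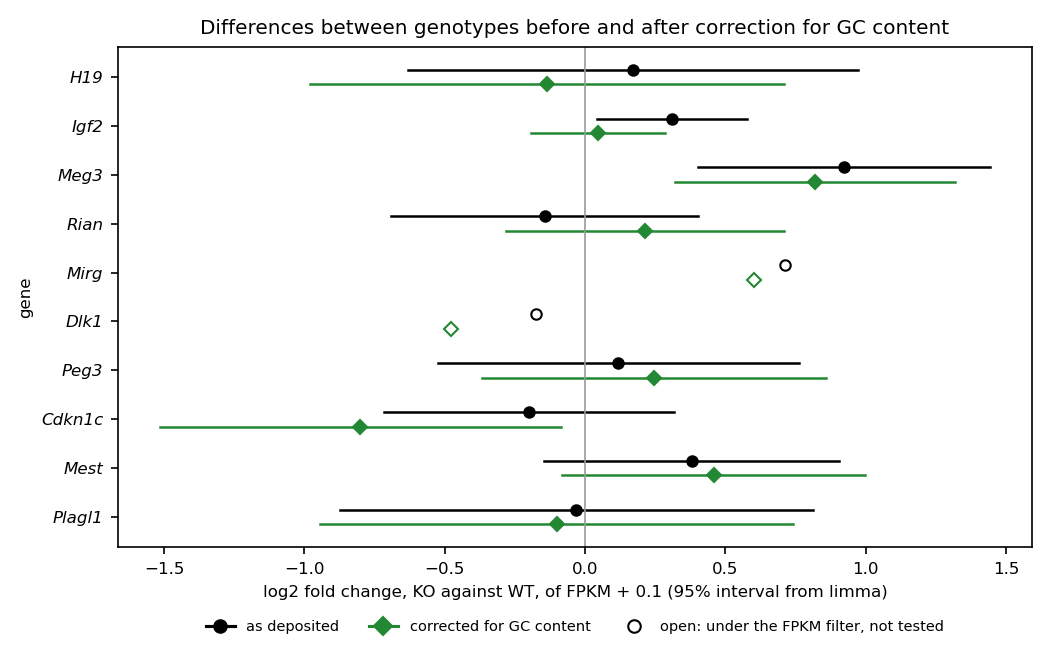
Log2 fold change (KO against WT, FPKM + 0.1) of the 10 genes as deposited (black circles) and corrected for GC content (green diamonds), with 95% intervals from limma. Open symbols are genes under the FPKM filter, drawn without an interval. The interval of *Meg3* lies above 0 in both fits, that of *Igf2* only as deposited, and that of *Cdkn1c* lies below 0 only after the correction.

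Other imprinted genes were described from a list of 49, of which 46 were in the table and 22 were tested. FPKM does not separate the parental copies, so imprinting of these genes in GAS muscle was not measured. Of the 22, 0 passed an adjusted p of 0.05, and 6 were higher and 1 lower at an unadjusted p under 0.05, against 15.3% and 10.9% of all tested genes. Their log2 fold changes were positive for 11 and negative for 11, with a median of 0.041. All KO libraries were above all WT libraries for 6 and below for 3, against 18.3% and 16.2% of tested genes.

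The largest difference in this list with an unadjusted p under 0.05 was that of *Ube3a*, the ubiquitin ligase gene imprinted in neurons. It was at 8.36, 7.37 and 7.83 FPKM in WT1, WT7 and WT8, and at 5.07, 4.15 and 4.37 in KO1, KO7 and KO8. Every KO library was below every WT library, and the log2 fold change was -0.78 (SE 0.12, limma adjusted p = 0.0667), or -0.38 after the GC correction. *Trappc9*, a gene of a vesicle trafficking complex, was at 11.5 ± 1.49 FPKM in the KO and 6.90 ± 1.66 in the WT (log2 fold change 0.75, limma adjusted p = 0.0912), or 0.38 after the correction.

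*Tssc4*, a gene near *Cdkn1c*, was at 3.10 ± 0.387 FPKM in the KO and 1.98 ± 0.205 in the WT (log2 fold change 0.62, limma adjusted p = 0.0832). *Gnas*, the gene of the stimulatory G protein α subunit, was at 623 ± 31.7 in the KO and 478.5 ± 44.9 in the WT (log2 fold change 0.38, limma adjusted p = 0.104). These differences were not kept at the same size after the GC correction, which gave 0.014 for *Tssc4* and -0.11 for *Gnas*. *Mcts2* and *Blcap* did not overlap between the genotypes but differed little, with log2 fold changes of -0.13 and -0.086 (limma adjusted p = 0.450 and 0.601).

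**Figure D5:**
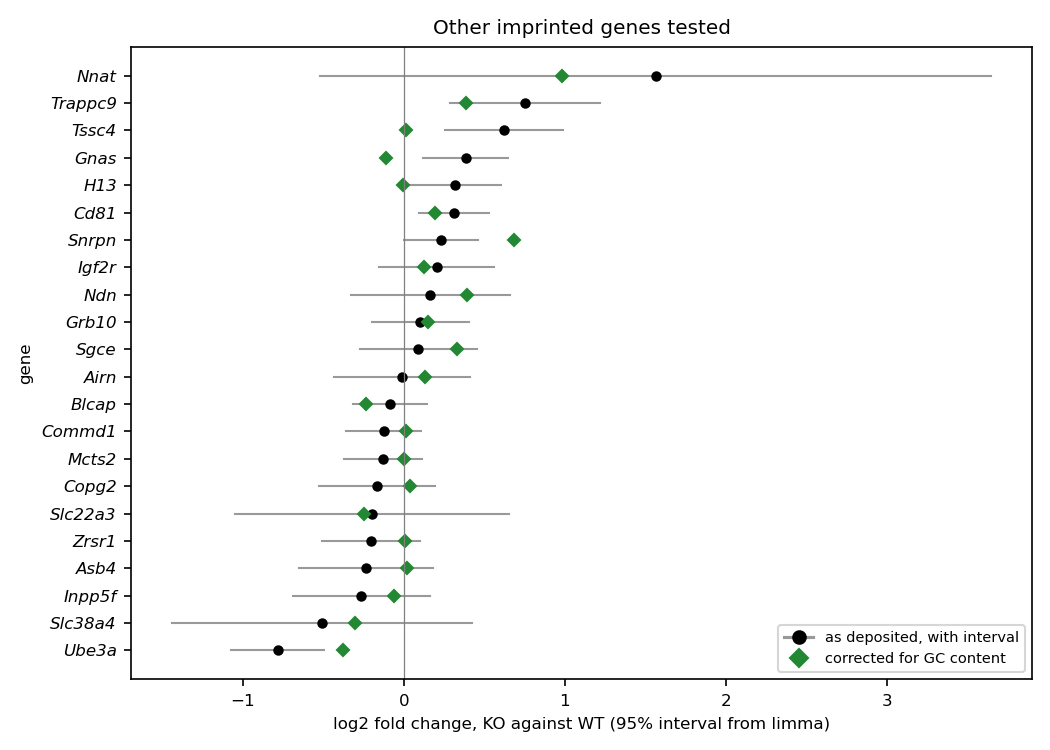
Log2 fold change (KO against WT, FPKM + 0.1) of the 22 other imprinted genes tested, as deposited (black, with 95% intervals from limma) and corrected for GC content (green diamonds). *Ube3a* is the lowest in both, and *Trappc9* and *Tssc4* lie above 0 as deposited, with *Tssc4* near 0 after the correction.

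The IGF axis holds the ligands, receptors, binding proteins and signal carriers that act with IGF2. Of 23 genes listed, 15 were tested, and 0 passed an adjusted p of 0.05, while 3 were higher and 1 lower at an unadjusted p under 0.05, against 15.3% and 10.9% of tested genes. The log2 fold change was positive for 11 and negative for 4, with a median of 0.15. *Igf1*, the other IGF ligand, was at 4.48 ± 1.06 FPKM in the KO and 3.81 ± 0.203 in the WT, with overlap. *Igf2r*, the receptor that clears IGF2 and is itself imprinted, was at 10.2 ± 0.791 and 8.93 ± 1.52, also with overlap (log2 fold change 0.21, limma adjusted p = 0.420). *Igf1r*, the signalling receptor, was at 1.05 ± 0.196 and 0.618 ± 0.228 without overlap (log2 fold change 0.71, limma adjusted p = 0.197).

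*Irs2*, a docking protein of the insulin and IGF1 receptors, was at 0.250, 0.591 and 0.527 FPKM in WT1, WT7 and WT8, and at 1.28, 1.12 and 2.55 in KO1, KO7 and KO8. The genotypes did not overlap, and the log2 fold change was 1.63 (SE 0.40, limma adjusted p = 0.0809), or 1.21 after the GC correction. The binding protein genes *Igfbp6* and *Igfbp4* had log2 fold changes of 0.94 and 0.86 (limma adjusted p = 0.0981 and 0.0887), with KO7 the highest library for both. After the correction they were at 0.29 and 0.49. *Ghr*, the growth hormone receptor gene, was at 50.1 ± 2.02 FPKM in the KO and 59.4 ± 2.06 in the WT (log2 fold change -0.25, limma adjusted p = 0.159), or -0.023 after the correction.

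*Cdkn1c* is 1 of 7 CDK inhibitor genes listed, of which 6 were tested and *Cdkn2a* was listed at 0 in every library. None of the 6 passed an adjusted p of 0.05 in limma, and 0 were higher and 2 lower at an unadjusted p under 0.05, against 15.3% and 10.9% of tested genes. All KO libraries were below all WT libraries for 3, against 16.2% of tested genes. The log2 fold change was negative for 5 and positive for 1, with a median of -0.26. *Cdkn1b*, the gene of p27, was at 12.99, 12.9 and 10.8 FPKM in WT1, WT7 and WT8, and at 9.52, 9.74 and 9.91 in KO1, KO7 and KO8. The KO values were all below the WT values (log2 fold change -0.32, limma adjusted p = 0.146), and the GC correction took the log2 fold change to -0.069. *Cdkn2c*, the gene of p18, and *Cdkn2b*, the gene of p15, also did not overlap between the genotypes, with log2 fold changes of -0.32 and -0.37 (limma adjusted p = 0.185 and 0.369). After the correction these were at -0.55 and -0.73, and the median of the list was -0.42. In the corrected limma fit 0 of the 6 passed an adjusted p of 0.05. At an unadjusted p under 0.05, 0 were then higher and 3 lower, *Cdkn1c* among them, against 5.71% and 5.42% of genes. *Cdkn2d*, the gene of p19, was the 1 with a positive log2 fold change, 0.95 with overlap (limma adjusted p = 0.197), or 0.54 after the correction.

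The genes whose log2(FPKM + 0.1) followed that of *H19* most closely over the 6 libraries were *Gramd1b* (Pearson's r 0.996), *Mrps35* (0.986), *Slc22a5* (0.979), *Med31* (0.975) and *Gm14827* (0.974). With 6 libraries, 91 of 12333 genes had an r above 0.9, and r is given as a description only. *Gramd1b* was at 1.45, 0.961 and 0.955 FPKM in WT1, WT7 and WT8, and at 0.724, 1.52 and 1.64 in KO1, KO7 and KO8, so it was lowest in KO1 and highest in KO8, as was *H19*. None of the other imprinted growth genes was among the 5.

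Markers of the cell types in the muscle were summed in each library, since several of the 10 genes are not expressed alike in all of them. Of 12 skeletal muscle markers 11 were tested, and *Myh4*, a defining myosin of fast GAS fibers, was listed at 0 in all 6 libraries. Such a 0 in a table without counts can be a failed estimate, which also holds for the zeros of *Cdkn2a* and of the microRNA genes. The sum of the muscle markers was 50162 to 55686 FPKM in the KO and 33129 to 49118 in the WT, with no overlap. All KO libraries were above all WT libraries for 4 of the 11 tested, against 18.3% of tested genes. Their median log2 fold change was 0.71, or 0.41 after the GC correction. The sums given here were not corrected for GC content. The sum of 10 satellite cell and myogenic genes was 20.8 to 22.0 in the KO and 13.7 to 23.3 in the WT, and that of 5 embryonic and regenerating muscle genes 57.2 to 149 and 54.7 to 116. For 11 fibroblast markers it was 891 to 1168 in the KO and 831 to 935 in the WT, and for 8 endothelial markers 48.9 to 64.6 and 47.9 to 53.1. For 7 macrophage markers it was 25.8 to 58.0 and 18.4 to 36.6, for 5 adipocyte markers 298 to 593 and 233 to 440, and for 6 Schwann cell markers 32.0 to 134 and 28.2 to 104. All 5 adipocyte markers had a positive log2 fold change, with a median of 1.65 (1.57 after the GC correction). Of them 3 were higher at an unadjusted limma p under 0.05, against 15.3% of tested genes. All KO libraries were above all WT libraries for 2 of the 5, against 18.3% of tested genes. These were *Plin1*, a lipid droplet gene, and *Cfd*, the gene of adipsin, with log2 fold changes of 2.79 and 2.11. KO7 was the highest library for all 5 markers. *Plin1* was at 1.14, 7.37 and 1.37 FPKM in KO1, KO7 and KO8, and *Cfd* at 27.9, 89.0 and 24.6. The other adipocyte markers overlapped between the genotypes. All 7 macrophage markers were also positive, with a median of 0.47 and none under an unadjusted p of 0.05. Of the sums, that of skeletal muscle alone separated the genotypes, and none of these lists had a gene called at an adjusted p of 0.05 in limma. Each sum rests on its most abundant genes and is not a measure of the share of a cell type. *Acta1* was at 12044.5 to 13917 FPKM in the KO and 5029 to 9656 in the WT. *Ckm* was at 7203 to 7971 and 2675 to 6307, while *Tnnc2* and *Pvalb*, also abundant, overlapped. The adipocyte sum was mostly *Fabp4*, at 258 to 450 in the KO and 217 to 409 in the WT. The part of tissue makeup in the values of *Meg3* and *Igf2* was not tested.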

How the data were processed

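RNA was measured in GAS muscles of 3 WT and 3 KO mice. The authors mapped paired reads to GRCm38 with TopHat and computed the deposited FPKM values with Cufflinks (versions and annotation not given in the sources used here). Counts were not used here. Groups came from the genotype labels. The members and gene lists were chosen with earlier results of these data known.

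Values were tested as log2(FPKM + 0.1) with limma 3.58.1 in R 4.3.3 with a variance trend. The fit covered 12334 genes whose mean reached 0.5 FPKM, and p-values were adjusted by Benjamini-Hochberg and called under 0.05. A fold change on this scale understates the change of low genes. The code was tested on simulated data. Ratios and single genes were tested by exact two-sided permutation.

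Coordinates and GC content came from GENCODE vM21 (32916 identifiers matched, and 2094 more by symbol, *Rian* and *Mirg* among them). The GC correction subtracted a loess curve of span 0.3 from each library's deviations, over 12151 genes. Depth came from low FPKM values, of which 88.3% to 91.8% lay within 0.15 of whole fragments on transcripts of 1500 to 6000 bases. Intervals cover the spread between mice only.

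The genes named were every member, *Kcnab2*, called genes of the 3 other pathway lists with the 3 largest rises and 3 largest falls without overlap in each, and the 5 genes most like *H19*. *Igf1*, *Igf1r*, *Igf2r*, *Copg2*, *Cdkn2a*, *Cdkn2d*, *Plin1*, *Cfd*, *Fabp4*, *Acta1*, *Ckm*, *Tnnc2*, *Pvalb*, *Myh4*, *Myh8*, *Actc1* and *Tnnt2* were named after their values were seen. Alternatives covered pseudocount, filter, scaling, variance model, replicate block, GC content, length, shared symbols, genes at 0 and each library left out. Figures were drawn with matplotlib 3.10.9.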

Additional observations from a re-analysis of the deposited data

How the results depend on the processing

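The number of genes called at an adjusted p of 0.05 in limma, 40, became 11 with a pseudocount of 1, 20 with no filter, 24 and 19 with scaling by the median and upper quartile, 19 with no variance trend, 14 with the GC correction, 1 without genes listed at 0, and 11 to 38 with 1 library left out. Array weights gave 3147 calls, among them 2 of the imprinted growth genes, *Igf2* (log2 fold change 0.32, adjusted p = 0.0288) and *Meg3* (0.59, adjusted p = 0.0421), 8 of the other imprinted genes, 5 of the IGF axis and 2 CDK inhibitors. Under every other setting run, 0 of the growth genes were called, and the adjusted p of *Meg3* over all alternatives ranged from 0.0421 to 0.456 and that of *Igf2* from 0.0288 to 0.925. The cause was not tested.

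*Meg3*, *Igf2*, *Mirg* and *Mest* kept a positive log2 fold change under each alternative run. *H19* went to -0.14 and *Rian* to 0.21 with the GC correction, with and without the replicate block, and *Cdkn1c* to 0.040 with array weights. With 1 library left out, *H19* ranged from -0.064 to 0.59, *Rian* from -0.40 to 0.030, *Dlk1* from -0.50 to 0.030, *Peg3* from -0.076 to 0.35, *Cdkn1c* from -0.34 to 0.050 and *Plagl1* from -0.20 to 0.19. The log2 ratio difference of *H19* to *Igf2* then ranged from -0.37 to 0.25 and that of *Meg3* to *Mirg* from -0.044 to 0.43. Scaling by the median moved the median log2 fold change of all tested genes to -0.079.

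Across all tested genes, libraries with the same replicate number did not deviate together (Pearson's r of -0.025, -0.080 and 0.034 for numbers 1, 7 and 8). Not every library correlated best with its own number. What the numbers stand for is not given in the sources used here. With 3 libraries a genotype, these values cannot show whether libraries of the same number had anything else in common. A replicate block gave 13 calls, and 12 with the GC correction. *Mirg* and *Dlk1*, under the filter, have no value with array weights, no variance trend, a filter of 1 FPKM, or genes at 0 or of shared symbols left out. *Rian* has none without shared symbols and *Plagl1* none with a filter of 1 FPKM. Only 3 mice a genotype and FPKM without counts limit the precision, above all for *Mirg*, *Dlk1* and *Plagl1*.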
